A study of Mus musculus with 18 samples.

Results

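The 33 genes described here build or regulate tight and adherens junctions, the belts that seal neighbouring epithelial or endothelial cells to each other. They were picked by symbol from the 24346 gene symbols of the deposited tables, and all 33 were found. They comprise 16 claudins, 3 tight junction proteins of the MARVEL family (Ocln, Marveld2, Marveld3), 4 junctional immunoglobulin proteins (F11r, Jam2, Jam3, Esam), 4 scaffold or polarity proteins (Tjp1, Tjp3, Cgn, Pard3), 5 cadherins and catenins (Cdh1, Cdh5, Ctnna1, Ctnnb1, Ctnnd1) and the kinase Mylk. Poly(A) RNA was sequenced from liver, intestine and lung of male C57BL/6 mice, 9 weeks old, all of which had undergone cecal ligation and puncture (CLP), a surgical model of sepsis in which gut bacteria leak into the abdomen. The H2 groups then breathed 7% hydrogen without a break until tissue was taken 24 h after surgery, and the control groups had CLP without the gas. Each organ and treatment had 3 libraries, 18 in all. The H2 mice shared a cage inside the gas box, so gas and housing cannot be told apart. Whether organs came from the same mice, and whether libraries were single animals, the labels do not state, so p-values measure the spread between these libraries. Sham-operated mice are not analysed here, so no value below compares septic with healthy tissue.

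Tight junctions control what passes between cells. Claudins, membrane proteins that cross the bilayer several times, line the sealing strands and differ in function: some, such as Cldn2 and Cldn15, form pores for small cations and water, while others, such as Cldn5 in blood vessels, tighten the strand. Occludin (Ocln) and the JAM proteins sit in the same strands, Tjp1 (ZO-1), Tjp3 (ZO-3) and Cgn (cingulin) tie them to actin, and below them E-cadherin (Cdh1, epithelium) or VE-cadherin (Cdh5, endothelium) hold cells together through catenins. Mylk, the myosin light chain kinase, contracts the actomyosin ring at the junction and also serves contraction in smooth muscle. In sepsis, leakage through these junctions is a known route for bacteria from the gut and for plasma from lung vessels.

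The promoters of 4 members are shown because the results below turn on them. Ocln and Cldn15 passed the test of the mean H2 change over the organs, Cldn2 was the highest claudin of the liver and Cldn5 the highest of the lung. Each run covers the 250 bases before the start site in RefSeq (build GRCm38.p6), 5′ to 3′ on the gene's strand, with motif matches in capitals.
Ocln, chr13:100552719-100552968, minus strand, the outer of 2 listed starts: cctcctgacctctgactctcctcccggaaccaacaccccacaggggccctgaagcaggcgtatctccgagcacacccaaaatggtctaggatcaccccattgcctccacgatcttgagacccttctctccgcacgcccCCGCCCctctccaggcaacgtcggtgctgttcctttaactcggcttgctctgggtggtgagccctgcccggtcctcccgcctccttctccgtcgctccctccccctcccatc
Cldn15, chr5:136967619-136967868, plus strand: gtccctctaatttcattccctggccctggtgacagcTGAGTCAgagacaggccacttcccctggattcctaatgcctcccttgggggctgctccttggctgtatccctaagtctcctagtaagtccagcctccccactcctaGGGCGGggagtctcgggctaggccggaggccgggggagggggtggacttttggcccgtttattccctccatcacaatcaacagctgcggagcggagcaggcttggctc
Cldn2, chrX:139800558-139800807, plus strand: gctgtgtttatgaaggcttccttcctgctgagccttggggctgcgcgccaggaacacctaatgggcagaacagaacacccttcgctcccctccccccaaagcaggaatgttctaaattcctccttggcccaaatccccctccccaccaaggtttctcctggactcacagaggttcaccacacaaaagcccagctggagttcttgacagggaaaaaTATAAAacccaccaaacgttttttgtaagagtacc
Cldn5, chr16:18776597-18776846, plus strand: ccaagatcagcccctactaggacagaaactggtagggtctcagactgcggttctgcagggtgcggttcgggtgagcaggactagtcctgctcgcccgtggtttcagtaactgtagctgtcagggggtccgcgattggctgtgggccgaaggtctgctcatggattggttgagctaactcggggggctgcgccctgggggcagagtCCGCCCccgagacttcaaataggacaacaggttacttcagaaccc
The capitals mark a GC box (GGGCGG on either strand) in Ocln from base -112, in Cldn15 from base -108 and in Cldn5 from base -45. They also mark an AP-1 motif (TGANTCA) in Cldn15 from base -214 and a TATA box (TATAAA) in Cldn2 from base -35. Of 6 motifs searched on both strands, the others being TTCNNNGAA (STAT), TTTATNG (CDX) and CCGGAAG (ETS), none of the last 3 occurs in these windows. RefSeq promoters were listed for 23 members with 37 entries. Over windows of 300 bases, which add 50 bases after the start, 22 of those 37 entries (59.46%) held a GC box against 35.66% of all 32851 entries. A TATA box was in 6 of the 37 (16.22%) against 13.62% of all, and the AP-1 motif in 4 (10.81%) against 7.808%. The STAT motif was in 4 (10.81%) against 8.298%, the CDX motif in 0 against 10.91% and the ETS motif in 6 (16.22%) against 8.858%. Entries of 1 gene overlap, so these shares are descriptions.

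Levels are FPKM, a count of sequenced fragments divided by transcript length and by library depth, so genes can be compared within a library. The depth implied by genes at 1 fragment was 8.51 to 15.49 M fragments per library. The markers of each labelled organ were present: summed hepatocyte markers lay between 20887 and 36756 FPKM in the liver, goblet cell markers between 9685 and 24807 in the intestine and airway markers between 122001 and 165003 in the lung. Control liver 2 and control lung 3 stood apart from the other controls of their organ in several members, and results that rest on them are given with and without them. Control lung 3 also had summed adipocyte markers of 870 FPKM, mostly Fabp4 (798), against 95.5 to 202 in the other lung libraries, whose part in the values was not tested. H2 intestine 2 had a summed FPKM of 1142970 against 709826 to 850609 in the other libraries.

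Each organ had its own claudin make-up, and the leading member of several other roles differed too. The highest MARVEL protein was Marveld2 in liver, Marveld3 in intestine and Ocln in lung. The highest scaffold or polarity protein was Pard3, Tjp3 and Tjp1 in the same order. F11r was the highest junctional immunoglobulin protein in liver and intestine, and Esam in lung. Ctnnb1 was the highest of the cadherins and catenins in every organ. Of the 33 members, 22 reached a mean of 1 FPKM in liver, 26 in intestine and 29 in lung, and only these were tested within an organ. Cldn9, Cldn11 and Cldn19 averaged under 1 FPKM everywhere. The liver lacked 8 further members at that level (Cldn4, Cldn7, Cldn8, Cldn10, Cldn15, Cldn18, Cldn23 and Jam3), the intestine 4 (Cldn1, Cldn10, Cldn14, Cldn18) and the lung 1 (Cldn14). In the control liver, Cldn2 held 42.2% ± 9.03 of the summed claudin FPKM (SD, n = 3), Cldn14 held 21.7% ± 2.34 and Cldn3 held 20.04% ± 6.18. Neither Cldn14 nor Cldn3 stood apart from the other beyond that spread. In the control intestine, Cldn7, a claudin of the lateral membrane of gut epithelium, held 61.3% ± 4.78. Cldn3 followed with 15.9%, Cldn2 with 11.7% and Cldn15 with 4.59% ± 2.27. In the control lung the endothelial claudin Cldn5 held 56.5% ± 11.4, followed by Cldn3 with 14.1%, the alveolar claudin Cldn18 with 11.3% and the ion-pore claudin Cldn10 with 9.58%. In bulk tissue, fewer cells of a type and less RNA per cell cannot be told apart, which holds for every level and change here.

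**Figure D1:**
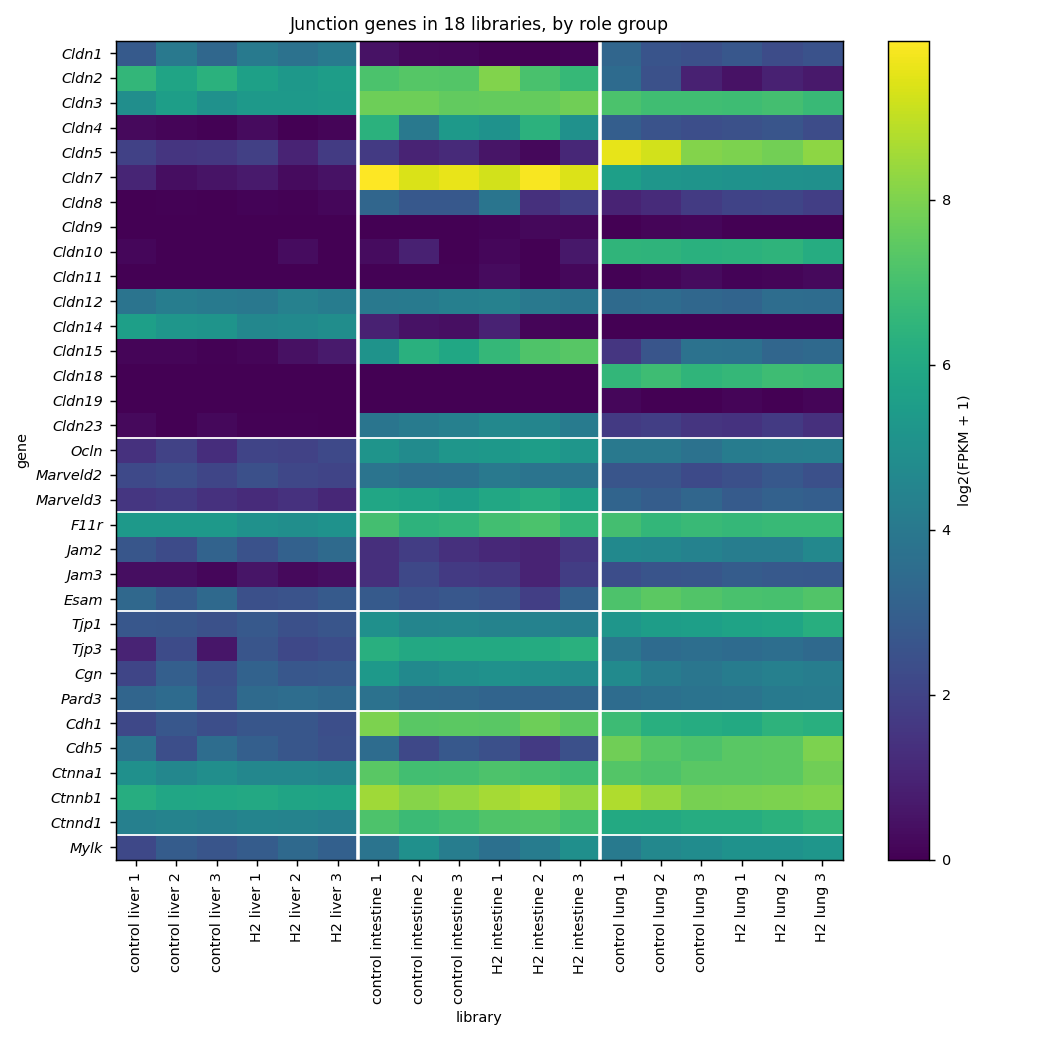
Level of the 33 junction genes as log2(FPKM + 1), by colour, in the 18 libraries (columns, liver, intestine and lung from left to right), with white lines between organs and role groups. The claudin rows switch between organs, with Cldn14 high in the liver, Cldn7 in the intestine and Cldn5, Cldn10 and Cldn18 in the lung.

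**Figure D2:**
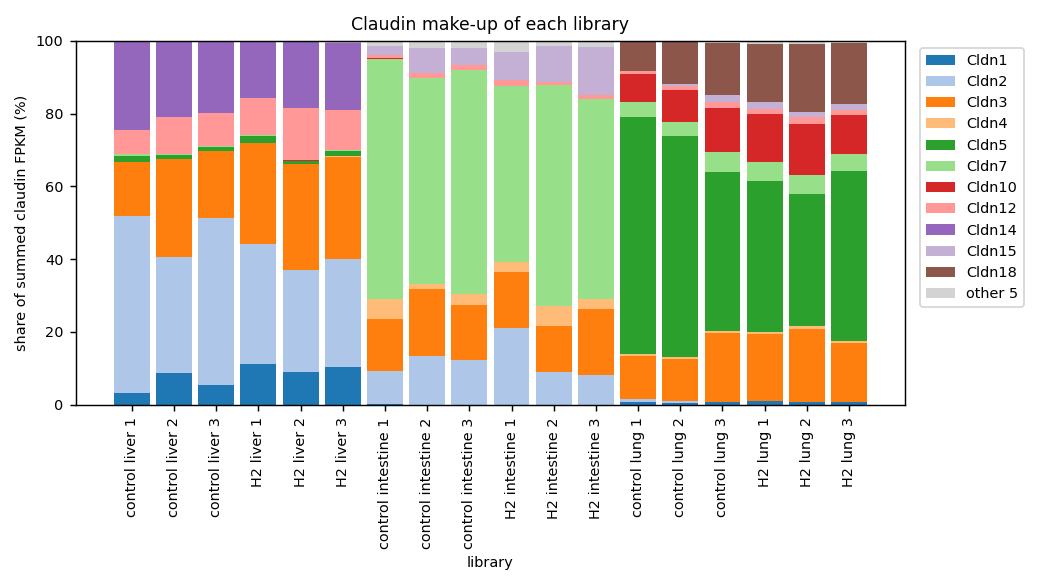
Share of each claudin in the summed claudin FPKM of a library (percent, stacked bars, 18 libraries). Cldn2 is the largest part in the control liver libraries, Cldn7 in all intestine libraries and Cldn5 in all lung libraries.

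Between control organs most members differed, as did most genes. With limma on log2(FPKM + 1), 22 of 30 members were called between liver and intestine (3 higher and 19 lower in the liver), where 72.6% of all genes tested were called. Between liver and lung 29 of 30 were called (4 higher and 25 lower in the liver) against 85.1% of all genes, and between intestine and lung 25 of 30 (16 higher and 9 lower in the intestine) against 68.9%. The median of all genes was itself lower in the liver, at -0.64 on the log2 scale against the intestine and -1.17 against the lung, and at -0.45 in the intestine against the lung. After quantile normalization these 3 medians were 0.06, 0.03 and 0.0009. The members' medians were -1.93, -2.08 and 0.66. After quantile normalization, which centres the libraries, 7 members were called higher and 19 lower in the liver than in the intestine, 6 higher and 19 lower than in the lung, and 16 higher and 8 lower in the intestine than in the lung. Cldn14, known as a cation barrier, was the clearest liver claudin: control levels were 39.1 ± 7.09 FPKM in the liver and 0.528 ± 0.297 in the intestine, and it was listed at 0 in every lung library. The difference was 4.72 ± 0.20 (SE, log2) against the intestine with an adjusted p of 5.08e-12. Cldn7 differed most between liver and intestine, at 0.595 ± 0.400 and 799 ± 161 FPKM (log2 difference -8.98 ± 0.20, adjusted p = 2.1e-15). Cldn5 measured 547 ± 250 FPKM in the control lung, 2.25 ± 0.465 in the liver and 1.49 ± 0.651 in the intestine, and the neighbours in that order, liver and intestine, did not differ beyond their spread (0.41 ± 0.34, adjusted p = 0.287). VE-cadherin (Cdh5) and Esam, both of endothelial junctions, were likewise highest in the lung, at 173 ± 40.8 and 155 ± 15.9 FPKM, against 9.30 ± 4.64 and 8.26 ± 1.92 in the liver. E-cadherin (Cdh1) was 195 ± 44.7 FPKM in the intestine, 85.6 ± 22.2 in the lung and 4.39 ± 1.07 in the liver. Among the members without a called difference between intestine and lung were Ctnnb1 (319 ± 40.2 and 332 ± 97.6 FPKM), Ctnna1 (137 ± 25.8 and 153 ± 12.2) and F11r (99.6 ± 19.8 and 108 ± 15.4). The sign of these small differences turned when libraries were rescaled. After median-of-ratios scaling, Ctnnb1 (0.52, adjusted p = 0.0214) and F11r (0.41, adjusted p = 0.0280) were called higher in the intestine. Ctnna1 (0.36, adjusted p = 0.0504) was not called there. Cldn12 was alike in liver and intestine as deposited (15.4 ± 2.32 and 16.6 ± 1.56 FPKM). After quantile normalization its liver level lay higher by 0.65 and was called (adjusted p = 0.00152).

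In the septic liver, no member passed the test for H2 against control, but the claudins Cldn2 and Cldn14 had lower values in every H2 library than in any control. None of the 22 tested members had an adjusted p under 0.05 (lowest 0.168), in an organ where 0.0199% of 10041 genes were called. At an unadjusted p under 0.05 there were 3 higher and 4 lower members, against 21% of all genes. The H2 libraries lay above every control in 2 members (12.2% of all genes) and below every control in 5 (13.1% of all genes). The members' median change was 0.017 and that of all genes tested -0.023.

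Cldn2 measured 94.6, 55.1 and 79.2 FPKM in the control livers and 48.8, 38.6 and 45.4 in the H2 livers. Control liver 2 was the lowest control, and the groups did not overlap. The change was -0.74 ± 0.21 (log2, SE) with an unadjusted p of 0.00973 and an adjusted p of 0.168. Cldn14 measured 47.2, 36.0 and 34.1 FPKM in the controls and 22.9, 25.1 and 28.2 with H2. Here too all H2 libraries were below all controls (-0.60 ± 0.16, adjusted p = 0.168). The share of Cldn2 in the claudin total was 30.3% ± 2.62 in the H2 liver. Cldn3, at 29.0, 46.5 and 31.4 FPKM in controls and 40.6, 40.1 and 42.8 with H2, made up 28.2% ± 0.777 there. Cldn1, a sealing claudin, was at 5.97, 15.1 and 9.05 FPKM in controls and 16.2, 12.3 and 16.0 with H2, with control liver 2 inside the H2 range (0.60 ± 0.30, adjusted p = 0.288).

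F11r (JAM-A), an adhesion molecule of epithelium, endothelium and leukocytes, was at 40.2, 39.3 and 39.8 FPKM in the controls and 31.5, 29.2 and 32.6 with H2. Its control values spanned less than 1 FPKM, and the groups stood clear of each other (-0.35 ± 0.10, adjusted p = 0.172). Esam measured 9.15, 6.06 and 9.56 FPKM in controls and 4.34, 4.85 and 6.01 with H2, apart by the small gap below control liver 2 (-0.60 ± 0.19, adjusted p = 0.178). Summed endothelial markers went the other way, at 29.8, 32.8 and 28.8 FPKM in controls and 42.4, 34.3 and 45.6 with H2, with 9 of 10 markers positive and none at 0 in a whole group. Of these Ptprb, Emcn, Kdr and Tek had the smallest p, with changes from 0.68 to 1.28. Summed epithelial markers, of which 4 of 7 were tested and all 4 were negative, were 830, 419 and 600 FPKM in controls and 375, 276 and 285 with H2, led by Krt18 (-1.01 ± 0.25, unadjusted p = 0.00481). Summed adipocyte markers were at 161, 71.8 and 104 FPKM in controls and 55.5, 39.8 and 54.3 with H2, without overlap. Both tested markers were negative. Most of each sum was Fabp4, at 145, 64.7 and 99.3 FPKM in controls and 50.9, 37.05 and 51.0 with H2. Adipoq, Plin1 and Lep were at 0 in all H2 livers, but reached at most 0.073, 0 and 0.024 FPKM in the control livers. Hepatocyte markers overlapped, at 20887 to 36756 FPKM in controls and 26074 to 30406 with H2. The part of these cell types in the liver values was not tested.

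Ocln measured 1.67, 2.88 and 1.47 FPKM in the control livers and 3.11, 2.90 and 3.55 in the H2 livers. Control liver 2 reached the lowest H2 value to within 0.1 FPKM, and the other controls were well below (0.50 ± 0.19, adjusted p = 0.204). Tjp3, the scaffold ZO-3, had the largest positive estimate of the liver members, at 0.999, 3.81 and 0.514 FPKM in controls and 5.18, 3.44 and 4.12 with H2. Its control 2 fell inside the H2 range (1.09 ± 0.41, adjusted p = 0.204). Mylk was at 3.43, 6.33 and 5.18 FPKM in controls and 6.44, 9.47 and 7.18 with H2, apart by a narrow gap (0.56 ± 0.22, adjusted p = 0.219). Marveld3, a MARVEL protein at low level, was at 1.94, 2.26 and 1.70 against 1.34, 1.68 and 1.13 FPKM (-0.32 ± 0.14, adjusted p = 0.244). The most abundant members of the remaining roles overlapped between groups. Ctnnb1 (beta-catenin) was at 71.6, 58.2 and 59.4 FPKM in controls and 62.9, 55.1 and 53.8 with H2. Pard3, a polarity scaffold, was at 8.43, 10.2 and 4.74 against 9.83, 10.7 and 9.43, and Marveld2 (tricellulin, at contacts of 3 cells) at 3.52, 4.28 and 3.23 against 4.30, 3.37 and 3.12. The other 9 tested members of the liver had estimates between -0.56 and 0.37.

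The liver counts turned on control liver 2. With it left out, 12 of 22 members were called, 6 higher and 6 lower, where 28.2% of all genes were called. The higher members were then Tjp3 (1.58 ± 0.19, adjusted p = 0.00293), Ocln (0.70 ± 0.12, adjusted p = 0.00879), Cldn1, Cldn3, Cgn and Mylk. The lower ones were Cldn2 (-0.96 ± 0.14, adjusted p = 0.00593), Esam, Cdh5, Cldn14, Ctnna1 and F11r. Without any other single liver library no member was called.

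**Figure D3:**
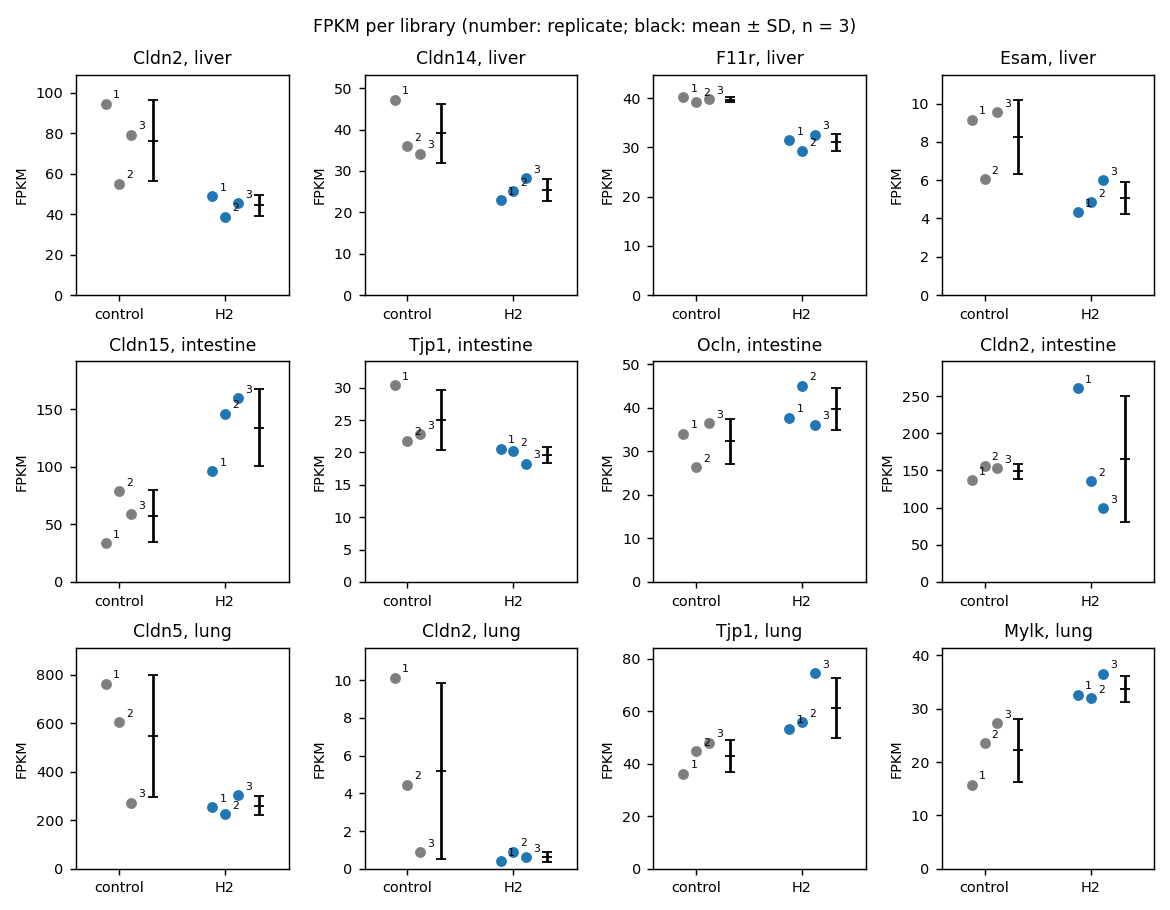
FPKM of 12 member and organ pairs in each library (points, numbered by replicate, grey control and blue H2), with the mean and SD of each group of 3 in black beside the points. In the liver row the 4 genes are lower in every H2 library, in the intestine row Cldn15 is higher in every H2 library, and in the lung row control lung 3 lies at the level of the H2 libraries for Cldn5 and Cldn2.

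In the septic intestine the largest difference was in the cation-pore claudin Cldn15, which had higher values in all 3 H2 libraries without passing the test over all genes. None of the 26 tested members was called (lowest adjusted p 0.346), where 0.0084% of 11910 genes were. At an unadjusted p under 0.05 there was 1 member, Cldn15, against 12.5% of all genes. Every H2 library was above every control in 2 members (10.6% of all genes) and below in 2 (8.75% of all genes). The members' median was -0.057 and that of all genes 0.019. Leaving out any 1 library called no member.

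Cldn15 measured 33.5, 78.9 and 58.8 FPKM in the control intestine and 96.1, 146 and 160 with H2. The lowest H2 library exceeded the highest control, and both groups were widely spread (1.27 ± 0.34, unadjusted p = 0.00600, adjusted p = 0.346). Its share of the claudin total was 4.59% ± 2.27 in controls and 10.2% ± 2.75 with H2. Cldn2, the other cation-pore claudin, overlapped fully, at 137, 156 and 153 FPKM in controls and 261, 135 and 99.4 with H2, where H2 intestine 1 was high and H2 intestine 3 low. The ratio of Cldn2 to Cldn15 within a library was 4.08, 1.98 and 2.61 in controls and 2.71, 0.926 and 0.621 with H2, with H2 intestine 1 inside the control range. Summed enterocyte markers were at 4972, 1871 and 3151 FPKM in controls and 3885, 9778 and 4452 with H2. Paneth and crypt cell markers were at 17326, 28783 and 29892 against 27989, 67161 and 34959. Both sums overlapped between groups, but all 7 tested markers of each list had positive estimates (medians 0.68 and 0.66). The labels do not state which segment of the intestine was taken. Summed adipocyte markers were at 303, 255 and 228 FPKM in controls and 79.7, 82.5 and 183 with H2, without overlap, and all 4 tested markers were negative (median -1.26). No marker of these 3 lists was at 0 in a whole intestine group, and their part in the values of the members was not tested.

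The abundant intestinal members were level between groups. Cldn7 was at 973, 655 and 768 FPKM in controls and 600, 917 and 668 with H2, and Cldn3 at 210, 213 and 188 against 192, 193 and 220. Ctnnb1 was at 362, 282 and 315 against 388, 452 and 315, and F11r at 122, 85.2 and 91.5 against 120, 137 and 93.3. Tjp3 was at 74.8, 62.3 and 64.1 against 63.8, 67.3 and 78.3. In each of these the groups overlapped. The 3 MARVEL proteins all had positive estimates. Ocln was at 34.0, 26.4 and 36.5 FPKM in controls and 37.8, 45.1 and 36.1 with H2 (0.29), Marveld3 at 58.1, 52.8 and 46.1 against 61.0, 71.9 and 53.0 (0.24). Marveld2 was at 13.1, 11.4 and 11.53 against 15.1, 13.2 and 13.2 (0.19), where the groups were apart by under 0.1 FPKM.

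Lower values with H2 were found for Tjp1 and Pard3 in the intestine. Tjp1 measured 30.4, 21.8 and 22.8 FPKM in controls and 20.6, 20.2 and 18.3 with H2, apart mainly through control intestine 1 (-0.32 ± 0.18, adjusted p = 0.473). Pard3 was at 12.6, 9.53 and 9.14 against 8.29, 7.87 and 8.45 (-0.30 ± 0.17, adjusted p = 0.469). The endothelial members Cldn5 and Cdh5 were low and overlapped. Cldn5 was at 2.22, 0.96 and 1.29 FPKM in controls and 0.48, 0.17 and 1.14 with H2 (-0.66 ± 0.29, adjusted p = 0.409), and Cdh5 at 10.3, 3.45 and 5.57 against 4.43, 2.21 and 4.36 (-0.61 ± 0.36, adjusted p = 0.486). Summed endothelial markers overlapped too, at 45.1, 33.3 and 35.3 against 40.5, 28.7 and 35.7 FPKM. Mylk overlapped between the groups: it was at 13.1, 30.8 and 17.2 FPKM in controls and 11.8, 17.1 and 29.5 with H2, and summed smooth muscle markers were at 159, 458 and 188 against 133, 114 and 421. Control intestine 2 and H2 intestine 3 were highest in both, and the part of muscle in the Mylk values was not tested. The other 11 tested members had estimates between -0.56 (Cldn8) and 0.32 (Cldn23).

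In the septic lung, values with H2 were higher for Ocln, Tjp1, Pard3 and Mylk in every library, and lower for Cldn5 and Cldn2 in comparison with 2 of the 3 controls. None of the 29 tested members was called (lowest adjusted p 0.173), where 0.00745% of 13424 genes were. At an unadjusted p under 0.05 there were 5 higher and 2 lower members, against 23.1% of all genes. The H2 libraries were all above the controls in 6 members (14.1% of all genes) and all below in 1, Cldn7 (15.9% of all genes). The members' median was -0.096 and that of all genes -0.0036.

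Tjp1, the ZO-1 scaffold, measured 36.2, 44.8 and 48.1 FPKM in the control lung and 53.5, 55.8 and 74.5 with H2. Every H2 library was higher, and H2 lung 3 stood highest (0.49 ± 0.17, adjusted p = 0.184). Pard3 was at 10.4, 11.7 and 12.7 FPKM in controls and 13.2, 16.0 and 16.7 with H2 (0.37 ± 0.13, adjusted p = 0.185). Ocln was at 15.1, 15.0 and 12.3 against 16.8, 17.7 and 18.7 (0.32 ± 0.11, adjusted p = 0.192). For all 3 genes the groups did not overlap. Summed alveolar type 1 cell markers did not overlap either, at 1798, 2292 and 2129 FPKM in controls and 2366, 2792 and 2522 with H2, with 5 of 6 markers positive and none at 0 in a whole group, and their part was not tested. Mylk was at 15.7, 23.5 and 27.2 FPKM in controls and 32.64, 31.998 and 36.51 with H2, again without overlap (0.61 ± 0.20, adjusted p = 0.175). Summed smooth muscle markers overlapped, at 169, 256 and 248 against 260, 194 and 213 FPKM. The ratio of Mylk to the smooth muscle myosin Myh11 was 1.06, 0.951 and 1.56 in controls and 1.72, 1.70 and 1.95 with H2, with no overlap. Cldn8, a low sealing claudin, was at 0.97, 1.36 and 2.31 FPKM in controls and 2.99, 3.18 and 2.62 with H2 (0.66 ± 0.21, adjusted p = 0.173). Jam3, an adhesion molecule whose exons overlap an antisense transcript over 36.22% of their bases, was at 4.06, 5.06 and 5.27 against 6.47, 5.81 and 5.73 (0.28 ± 0.12, adjusted p = 0.231).

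Cldn5 measured 763, 605 and 272 FPKM in the control lung and 253, 224 and 303 in the H2 lung. Control lungs 1 and 2 were far above the rest, and control lung 3 lay inside the H2 range (-0.95 ± 0.37, adjusted p = 0.202). Its share of the claudin total was 56.5% ± 11.4 in controls and 41.5% ± 5.10 with H2, and the summed claudin FPKM was 1171, 994 and 625 against 613, 616 and 650. Cldn2, scarce in the lung, was at 10.1, 4.46 and 0.88 FPKM in controls and 0.39, 0.90 and 0.62 with H2, once more with control lung 3 in the H2 range (-1.58 ± 0.59, adjusted p = 0.197). Cldn15 had the reverse arrangement, at 1.96, 5.12 and 12.3 against 11.9, 8.67 and 9.39 FPKM (0.81 ± 0.50, adjusted p = 0.342). The other vascular members overlapped between groups. Cdh5 was at 219, 158 and 142 FPKM in controls and 168, 169 and 247 with H2, Esam at 143, 173 and 148 against 136, 132 and 148, and Jam2 at 24.96, 22.9 and 20.001 against 17.5, 17.4 and 23.9. Summed endothelial markers were 557, 736 and 986 FPKM in controls and 1085, 934 and 1230 with H2, with 9 of 10 markers positive and none at 0 in a whole group, led by Kdr, Ptprb, Emcn and Tek (0.72 to 1.43). Relative to Pecam1, an endothelial adhesion molecule, Cldn5 was 4.53, 2.53 and 0.985 in controls and 0.920, 0.957 and 0.835 with H2, so control lung 3 was only just above the H2 libraries. The ratio of Esam to Pecam1 was 0.850, 0.724 and 0.536 in controls and 0.494, 0.563 and 0.408 with H2, and that of Jam2 to Pecam1 was 0.148, 0.0958 and 0.0724 against 0.0636, 0.0742 and 0.0659. In both, control lungs 1 and 2 were above all H2 libraries and control lung 3 was inside their range. The ratio of Cdh5 to Pecam1 did not follow this order, at 1.30, 0.660 and 0.515 in controls and 0.612, 0.721 and 0.679 with H2. There control lung 2 was inside the H2 range and control lung 3 below it. The part of the endothelial cell share in these values was not tested.

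**Figure D4:**
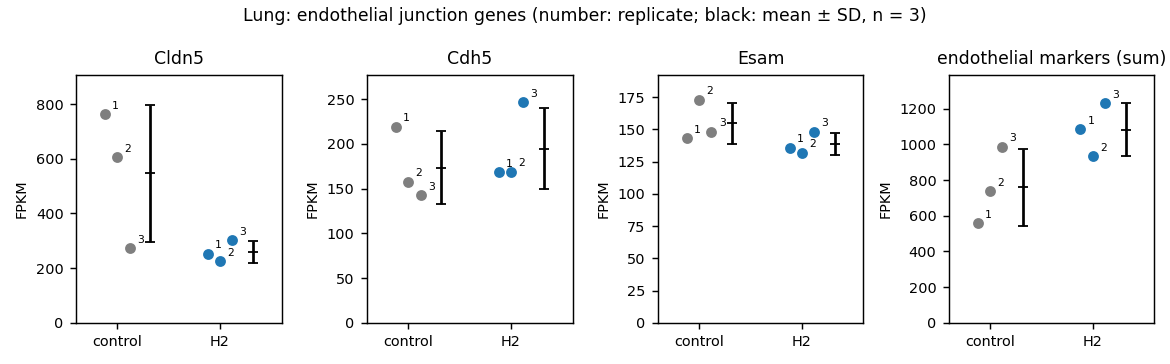
Lung FPKM per library of the endothelial junction genes Cldn5, Cdh5 and Esam and of the sum of 10 endothelial markers (points numbered by replicate, grey control and blue H2, mean and SD of 3 in black). Cldn5 is high in control lungs 1 and 2 (763 and 605 FPKM) while the marker sum is lowest there (557 and 736 FPKM).

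The epithelial claudins of the lung differed little. Cldn7 was at 48.1, 36.6 and 33.8 FPKM in controls and 32.1, 31.8 and 30.9 with H2 (-0.30 ± 0.14, adjusted p = 0.255). Cldn18 was at 93.3, 115 and 88.9 against 98.0, 115 and 109, Cldn3 at 137, 116 and 118 against 112, 123 and 105, and Cldn10 at 88.3, 88.0 and 77.1 against 81.7, 86.8 and 68.9, all overlapping. Ctnnb1 was at 431, 327 and 236 FPKM in controls and 245, 252 and 263 with H2, with control lung 3 below all H2 libraries. The other 12 tested members of the lung had estimates between -0.27 and 0.30. In Ctnnb1, 14.62% of exonic bases lie opposite Ulk4, and in Ctnnd1 61.24% are shared on the same strand with the predicted gene Gm28635, so their levels are uncertain. Without control lung 3, 6 of 29 members were called, where 24.5% of all genes were. Cldn5 (-1.39 ± 0.17, adjusted p = 0.00803), Cldn2 (-2.27 ± 0.31, adjusted p = 0.0102) and Ctnnb1 were then lower, and Cldn8 (0.86 ± 0.15, adjusted p = 0.0146), Cldn15 (1.35 ± 0.31, adjusted p = 0.0281) and Mylk were higher. Without any other single lung library no member was called.

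**Figure D5:**
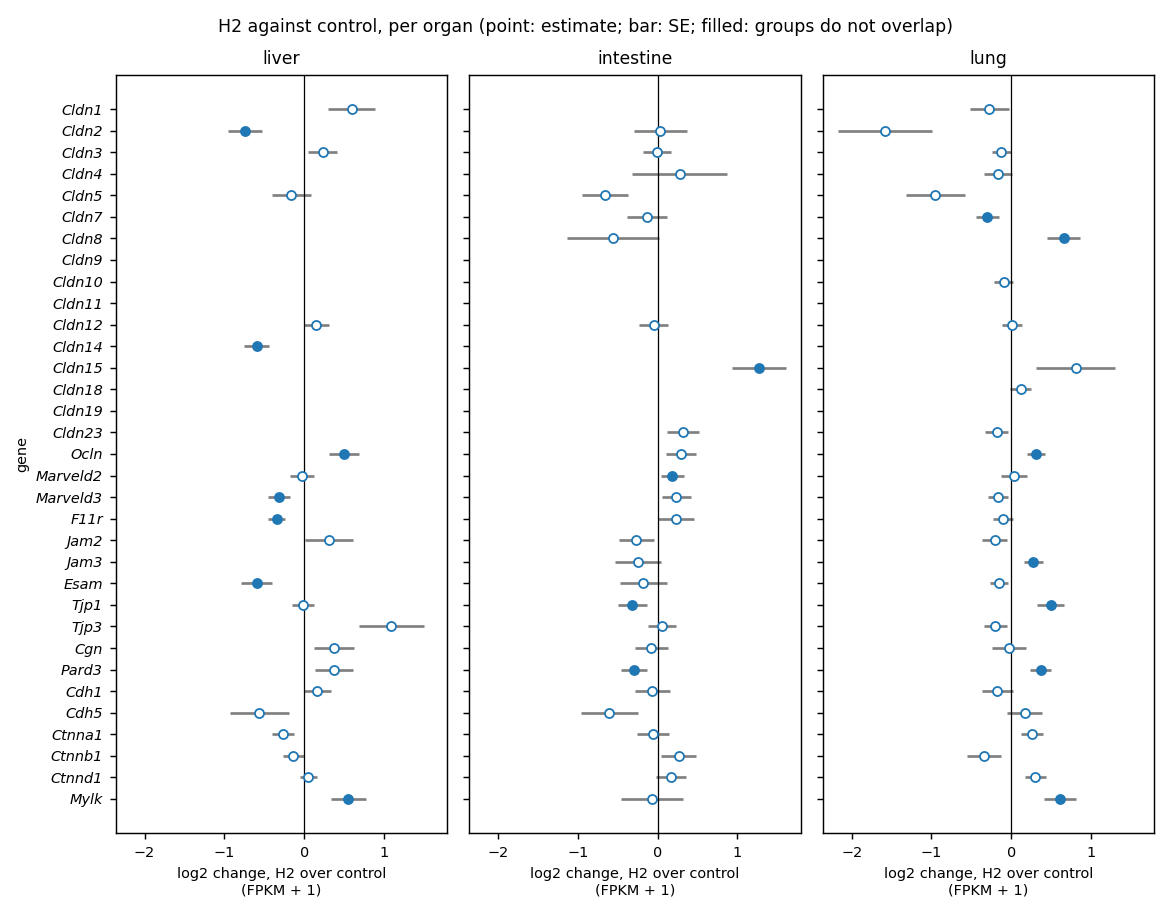
Change of each tested member with H2 in each organ, as log2 of H2 over control on FPKM + 1 (point, estimate; bar, SE; filled point, the 3 H2 and 3 control libraries do not overlap). Untested members have no point, and no member passed an adjusted p of 0.05 in any single organ.

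Averaged over the 3 organs, occludin and Cldn15 rose with H2. In the fit of all 18 libraries, 2 of 30 tested members were called, both higher, which is 6.67% against 9.62% of all 13362 genes, a share below that of all genes. At an unadjusted p under 0.05 there were 3 higher and 4 lower members, against 30.7% of all genes. Ocln rose by 0.37 ± 0.10 (adjusted p = 0.0310), with organ estimates of 0.50, 0.29 and 0.32 in liver, intestine and lung. Cldn15 rose by 0.80 ± 0.24 (adjusted p = 0.0454), carried by the intestine and lung, since its liver means were 0.0777 and 0.368 FPKM. Cldn5 (-0.59 ± 0.19, adjusted p = 0.0642) and Cldn2 (-0.76 ± 0.27, adjusted p = 0.0755) did not pass. Of 20 members tested in all 3 organs, Ocln and Ctnnd1 had positive estimates in every organ and Cldn5 and Esam negative ones. The share of all genes with the same sign in every organ was not counted, so no pattern is read from these members. Neither the call of Ocln nor that of Cldn15 held under every alternative. Treating the 3 organs of a treatment and replicate number as 1 sample gave an adjusted p of 0.0808 for Ocln and 0.115 for Cldn15, and over 27 alternatives the call was lost in 13 for Ocln and in 18 for Cldn15. Leaving out control liver 2, H2 intestine 1, control lung 3 or H2 intestine 3 raised the number of called members to 5, 4, 4 and 3, respectively. Those were 16.7%, 13.3%, 13.3% and 10% of the members, where 19.6%, 8.43%, 21.2% and 12.1% of all genes were called. The number was 0 without any 1 of control liver 1 or 3, H2 liver 1 or 3, control intestine 1, H2 intestine 2, control lung 1 or 2, or an H2 lung library, and 1 without H2 liver 2 or control intestine 3. In these settings with 0 or 1 called member, 2.32% to 4.99% of all genes were called.

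The response of Tjp1 had opposite signs in intestine and lung. Its change in the intestine minus that in the lung was -0.81 ± 0.23, with an unadjusted p of 0.00256 and an adjusted p of 0.0789, and it was not called. No member was called for any difference between organs: 0.217% of all genes were called for liver against intestine, 0.239% for liver against lung and 1.24% for intestine against lung. Pard3, Tjp1's partner in this pattern, differed by -0.67 ± 0.27 between intestine and lung (adjusted p = 0.192) and by 0.67 ± 0.27 between liver and intestine (adjusted p = 0.253). Tjp3 had its largest difference between liver and lung (1.29 ± 0.42, adjusted p = 0.206), where the liver value includes control liver 2. F11r and Marveld3 had negative estimates in the liver and positive ones in the intestine, with differences of -0.57 ± 0.22 and -0.55 ± 0.20 (adjusted p = 0.228 and 0.209). Cldn2 differed by 1.62 ± 0.65 between intestine and lung (adjusted p = 0.189). Without control lung 3, Cldn2, Tjp1 and Ctnnb1 were called between intestine and lung, 10% of the members against 7.79% of all genes. Without control liver 2, Tjp3 and Cldn1 were called between the liver and each of the other organs. They were 6.67% of the members, against 5.8% of all genes for the intestine and 3.97% for the lung. Without H2 intestine 1, Cldn8 was called between intestine and each of the others. It was 3.33% of the members, against 0.553% of all genes for the liver and 1.47% for the lung.

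Other genes of the junction were read from a list of 54, of which 53 were found, 7 under older symbols. None was called within an organ. Of those tested, at an unadjusted p under 0.05, 3 were higher and 4 lower of 34 in the liver (21% of all genes), 2 and 1 of 37 in the intestine (12.5% of all genes), and 12 and 3 of 42 in the lung (23.1% of all genes). In the mean over the organs 3 of 42 were called (7.14%), against 9.62% of all genes. Pvrl3 (nectin-3), an adhesion molecule of adherens junctions, was at 18.8, 26.4 and 31.1 FPKM in the control lung and 38.7, 40.6 and 42.3 in the H2 lung. It was at 29.5, 37.5 and 36.0 against 41.9, 70.2 and 47.9 FPKM in the intestine and 7.86, 9.70 and 6.71 against 9.78, 11.3 and 13.02 in the liver. All H2 libraries were above all controls of their organ, and its mean rise was 0.57 ± 0.12 (adjusted p = 0.0145). Amot, the scaffold angiomotin, rose by 0.30 ± 0.08 (adjusted p = 0.0328), from levels that in liver and lung were at most 1.29 FPKM in controls, and its call was lost in 13 of 26 alternatives. Ybx3, the ZO-1-associated transcription factor, fell by 0.44 (SE 0.13, adjusted p = 0.0428), a call lost in 19 of 27 alternatives, while that of Pvrl3 was lost in 1 of 27. In the lung Ybx3 was at 114, 103 and 86.8 FPKM in controls and 69.0, 66.3 and 74.1 with H2, without overlap. The lung genes with the smallest p beside these were Mpp5 (Pals1, polarity, 0.58 ± 0.15) and Vcl (vinculin, 0.62 ± 0.16). In the liver they were the myosin light chain Myl12a (-0.47 ± 0.13) and N-cadherin Cdh2 (0.53 ± 0.16), and in the intestine Pard6a (0.62 ± 0.20), Amotl1 (-0.45 ± 0.18) and Pard6b (-0.46 ± 0.22), none of them called. Among neighbours in the genome, Ocln and Marveld2 lie on chromosome 13 (mm10, 100496507 to 100552718 and 100595957 to 100616971, both minus strand), and in the lung their estimates were 0.32 and 0.03. Cldn3 and Cldn4 lie on chromosome 5 (134986214 to 134987472 and 134945119 to 134946934), and Cldn4 averaged 0.111 FPKM in the control liver where Cldn3 averaged 35.7.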

How the data were processed

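The deposited values are FPKM made by the authors, 1 column per library. The tools named per the submitters' processing notes are Cufflinks 2.2.1, TopHat2 2.0.13, SAMtools 0.1.19 and Bowtie2 2.2.3, with build mm10. Annotation and strand setting are not given in the sources used here. Libraries were made with a stranded mRNA kit per the labels' protocols. Groups follow the sample titles. In the file of control lung 2, 1 further column equals control lung 3 (0 values differ) and was not used. Counts are not used here, so no counting intervals are given, and depth was implied from genes at 1 fragment. None of 15 housekeeping genes was at 0 in any library.

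FPKM were tested as log2(FPKM + 1), with a pseudocount of 1, by limma 3.58.1 in R 4.3.3 (empirical Bayes with trend, two-sided) keeping genes whose mean FPKM reached 1, so fold changes of low genes are understated. Benjamini-Hochberg adjustment ran over all genes tested, and genes under 0.05 were called. Each organ was fitted on its 6 libraries. The mean over organs, differences between organs and control contrasts used all 18 with 1 mean per group. An exact permutation test of 3 against 3 cannot go below 0.1. The fits were tested on simulated data: at a log2 change of 1, the share of changed genes recovered was 66% (liver), 34% (intestine) and 64% (lung). Changes were planted only in genes above a minimum mean level, with independent noise per gene and no shift of whole libraries. These shares can therefore overstate recovery for low members and where a whole library stands apart.

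The members, lists and tests were chosen with earlier results of these data known. The rule for naming took called members, the 5 with the smallest p in each organ, the highest of each role in each organ, and called or up to 4 other junction and marker genes per organ. Of the other junction genes within this rule, 1 is not reported here. Chosen after their values were seen were Tjp3, Marveld3, Cldn1 and Cldn3 in the liver, Marveld2, Cldn2 and Cldn3 in the intestine, Jam3, Cldn2, Cldn3, Cldn7, Cldn10, Cldn15, Cldn18, Jam2 and Cdh5 in the lung, and the ratios between genes. Gene positions come from GENCODE vM21. Alternatives were other pseudocounts, filters, scalings, a robust fit, all libraries in 1 fit, a replicate block, 1 mean over organs, and each library left out.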

Additional observations from a re-analysis of the deposited data

Results flagged for a closer look

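For Tjp1 all H2 libraries were below all controls in the intestine and above all controls in the lung, a difference of -0.81 on the log2 scale (adjusted p = 0.0789, limma). Pard3 showed the same opposite order, with a difference of -0.67 (adjusted p = 0.192). Neither difference passed the threshold. Of all genes tested in the organ, 8.75% had every H2 library below every control in the intestine. In the lung 14.1% had every H2 library above every control. How many genes did both was not counted, so the pattern is a description of these 2 members.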

How the results depend on the processing

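For H2, leaving out 1 library at a time gave 0 to 12 called members in the liver, 0 to 6 in the lung, 0 to 5 in the mean over organs (2 as reported), 0 to 2 for liver against intestine, 0 to 2 for liver against lung and 0 to 3 for intestine against lung, against 0 as reported for each of these except the mean. For the mean, the count was 1 with no filter, 1 after quantile normalization and 0 with 1 mean over the organs. For intestine against lung it was 1 with no filter. The causes were not tested. Correlations of same-numbered deviations within an organ ran from -0.112 to 0.332, on too few libraries to show whether replicate numbers mark a shared step. The airway marker Scgb1a1 was at 4.30 and 5.07 FPKM in replicate 1 of control and H2 liver. In replicate 1 of the intestine it was at 3.22 and 5.27. It was at 0 in replicates 2 and 3 of these groups, and Sftpc was likewise above 0 only in their replicate 1. What the replicate numbers stand for was not tested. With a replicate block the mean over organs had 0 called members, with an adjusted p of 0.0827 for Ocln and 0.0576 for Cldn15. Among all genes the calls ranged as widely: other settings than leaving out libraries gave 0 to 279 in the liver (2 as reported), 1 to 225 in the intestine (1), 1 to 535 in the lung (1) and 16 to 1404 for the mean (1285), and leaving out 1 library gave 0 to 2834, 2 to 28, 1 to 3295 and 312 to 2814. For the differences between organs, leaving out 1 library called 10 to 779 genes for liver against intestine (29 as reported). The calls were 2 to 588 for liver against lung (32) and 18 to 1035 for intestine against lung (166).

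In sign, control intestine against control lung turned for Ctnna1 (0.0102 after quantile normalization, 0.36 after median-of-ratios scaling, 0.12 with the replicate block), Ctnnb1 (0.0746 and 0.52 by the same 2 scalings, and -0.24 to 0.19 without 1 library) and F11r (0.0790 and 0.41). After median-of-ratios scaling, Ctnnb1 and F11r were called by limma (adjusted p = 0.0214 and 0.0280). Cldn12 in liver against intestine turned to 0.65 and 0.71, and was called after both scalings (adjusted p = 0.00152 and 0.000715). Cldn2 in the intestine with H2 was 0.03 as reported, -0.17 after quantile normalization and -0.35 to 0.34 without 1 library. The numbers of called members between control organs stayed within 1.5 times under every alternative, at 20 to 26, 25 to 30 and 22 to 26 under other settings and 22 to 25, 27 to 29 and 23 to 25 without 1 library (liver against intestine, liver against lung, intestine against lung). At 3 libraries per group and 8.51 to 15.49 M fragments, members that averaged under 1 FPKM in an organ were not tested for H2 in it.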
